A study of Mus musculus with 10 samples.

Results

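The TGF-beta genes examined here are the ligand genes Tgfb1, Tgfb2 and Tgfb3, the receptor genes Tgfbr1 and Tgfbr2, the signal transducers Smad2 and Smad3, the feedback inhibitor Smad7 and the induced matrix gene Tgfbi. All probe sets annotated to only one of these 9 genes were taken, which gave 24 of the 45101 probe sets on the array, and they were read in 5 KO and 5 WT colon tumours. The KO tumours (genotype vil-Cre-Bcl9-/-/Bcl9l-/-) came from 3 mice, with tumours 2 and 6 from mouse 02, tumours 9 and 11 from mouse 04 and tumour 7 from mouse 99. The wild-type (WT) tumours came from 2 mice, with tumours 1, 3, 12 and 13 from mouse 72 and tumour 8 from mouse 82. All mice had a mixed 129SvEv/C57BL/6/DBA/2 background. At an age of 6 to 8 weeks, KO and WT mice alike had been given 1 dose of dimethylhydrazine (44 mg/kg), a precursor of the carcinogen azoxymethane, followed by 2% dextran sulfate sodium in the drinking water for 7 days, which causes colitis. Tumour tissue was cut out by laser, and each tumour went onto 1 Affymetrix whole-genome mouse array. Vil-Cre is active in the intestinal epithelium, so stromal and immune cells in the dissected tissue are not its target. Bcl9 and Bcl9l are co-activators of beta-catenin in Wnt signalling.

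TGF-beta is secreted in a latent form, in which the mature dimer is held by its own propeptide and tethered to the matrix by latent TGF-beta binding proteins. Once released, it binds the type II receptor (Tgfbr2), which activates the type I receptor (Tgfbr1), and this phosphorylates Smad2 and Smad3 to act in the nucleus together with Smad4. In the colon the pathway restrains epithelial growth, drives matrix production by fibroblasts and dampens lymphocytes, and human colon cancers often carry mutations of its receptors or Smads.

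The array medians lay between 6.43 and 6.50 log2, and precision is bounded by 10 arrays from 5 mice. Of 5 probe sets of the deleted genes Bcl9 and Bcl9l, the 4 tested read higher in KO tumours, against the direction of the label, by 0.13 to 0.32 log2 without passing (limma, adjusted p of 0.240 to 0.650). The untested one, of Bcl9l, read lower, at 4.62 ± 0.05 log2 in KO and 4.76 ± 0.05 log2 in WT tumours (SD, n = 5 each). No source says whether these probe sets read the deleted exons, so they check nothing about the genotype. All 10 colon epithelial markers read, among them Epcam, Cdh1 and Cdx2, lay above the level filter of 5.81 log2 that a probe set's mean over the 10 arrays had to reach to be tested. Their mean level was 11.67 to 12.02 log2 in KO and 10.94 to 12.31 log2 in WT tumours. Lymphocyte markers had a higher mean in each KO tumour (6.69 to 7.25 log2) than in any WT tumour (5.49 to 6.13 log2). The mean is over 9 markers, of which 2, Cd3e and Ms4a1, lay under the level filter. Of these markers, 5 of the 7 tested rose, beside 3.2% of all probe sets tested. Cd3d and Cd4, at 0.58 and 0.05 log2, did not pass. The WT means of Cd3g, Cd2, Cd8a and Cd79a (5.38, 5.65, 5.77 and 5.07 log2) lay under the level filter. These entered the test through their KO values and their rise is not exact, whereas Jchain lay at 9.37 log2 in WT tumours. In WT tumour 3 the fibroblast, endothelial and myeloid marker means were the lowest of the WT tumours (7.02, 6.41 and 7.15 log2). Unique sample numbers fall into a range of 191 to 229 with 1 KO and 4 WT tumours and a range of 254 to 258 with 4 KO and 1 WT, so number range and genotype largely coincide.

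Of the 24 probe sets, 21 reached the level filter and 3 did not, and 1 fell in KO tumours while none rose (limma with the mouse as a random block, Benjamini-Hochberg adjustment over 27022 probe sets, threshold 0.05). That is 4.76% of the member probe sets tested, beside 5.73% of all probe sets (3.2% higher and 2.52% lower), so the share of changed probe sets among the TGF-beta genes was near the background. At an unadjusted p under 0.05 there were 2 of 21 (9.52%), both lower, against 20.7% of all probe sets in either direction and 9.43% lower. The probe set that fell belongs to Tgfb3. The difference KO minus WT was below 0 for 18 of the 21, with a median of −0.17 log2, against 47.7% and a median of 0.01 log2 over all probe sets tested, but probe sets of 1 gene read the same RNA and are not separate observations. In dissected tissue, fewer cells of a type and less RNA per cell cannot be told apart, here and in all results that follow.

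**Figure D1:**
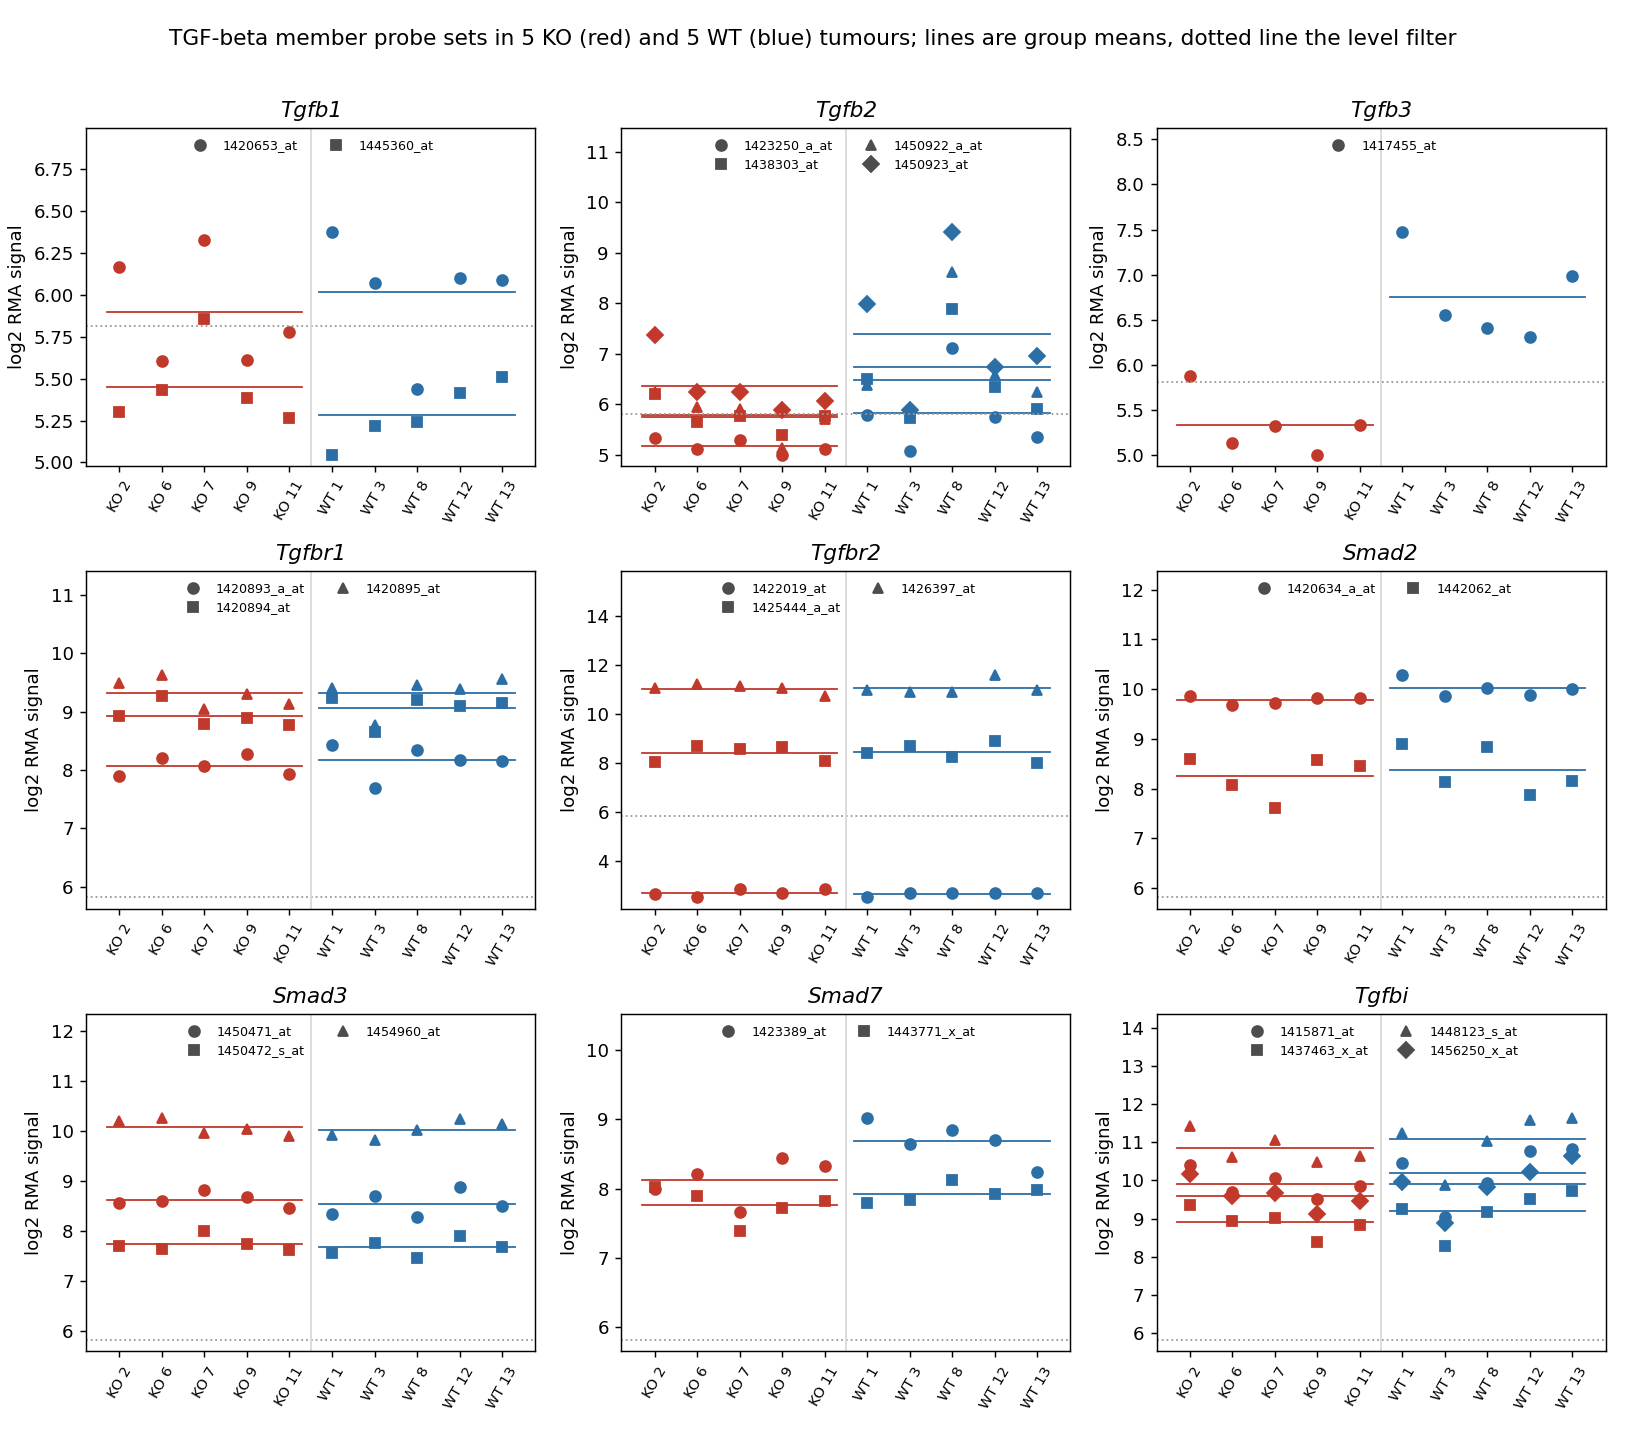
Log2 RMA signal of each of the 24 probe sets (marker shapes) in each KO (red) and WT (blue) tumour, 1 panel per gene, with group means as lines and the level filter of 5.81 log2 as a dotted line. For Tgfb3 the 5 KO tumours lie below the 5 WT tumours, for Tgfb2 WT tumour 8 lies above all others, and for the receptors and Smad3 the groups overlap.

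Among the ligands, Tgfb3, whose product acts in palate closure and wound repair and is made largely by mesenchymal cells, was lower in KO tumours. Its only probe set, 1417455_at, read 5.88, 5.14, 5.32, 5.01 and 5.33 log2 in KO tumours 2, 6, 7, 9 and 11, against 7.47, 6.55, 6.41, 6.31 and 6.99 log2 in WT tumours 1, 3, 8, 12 and 13, an order of tumours kept in all value lists below. No KO tumour reached the lowest WT tumour, and the gap between the groups was held by KO tumour 2 and WT tumour 12. The means were 5.33 ± 0.33 log2 in KO and 6.75 ± 0.48 log2 in WT tumours (SD, n = 5 each), a difference of −1.40 ± 0.26 log2 (SE) or 2.64-fold (limma, adjusted p = 0.0102). The KO mean lay under the level filter, so the probe set entered the test through its WT values and the fold is not exact. By mouse, the means were 5.51, 5.17 and 5.32 log2 in KO mice 02, 04 and 99, against 6.83 and 6.41 log2 in WT mice 72 and 82, and the test on mouse means also passed (limma, difference −1.29 log2, adjusted p = 0.0268). The call was lost without mouse 04 (−1.30 log2, adjusted p = 0.0536), without mouse 72 (−1.08 log2, adjusted p = 0.195) and within the lower number range (−1.25 log2, adjusted p = 0.240), and held within the upper range (−2.14 log2, adjusted p = 0.0261). The fits without mouse 72 and within either range leave 1 tumour in a group and assume that it varies like the others. Fibroblast markers, in cells that commonly make Tgfb3, overlapped between the groups, with a list mean of 7.19 to 8.03 log2 in KO and 7.02 to 7.97 log2 in WT tumours and 0 of 6 tested members past the threshold (limma). The list mean includes 4 members under the level filter. Of the tested members, Dcn, Pdgfra, Pdgfrb and Dpt differed by −0.74, −0.53, −0.32 and −0.09 log2, and Thy1 and Pdpn by 0.03 and 0.39 log2. The part of fibroblasts in the Tgfb3 result was not tested.

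Tgfb2, which encodes the isoform best known from heart and craniofacial development, had the widest spread among WT tumours of the 9 genes, with an SD of up to 1.35 log2. Probe set 1450923_at read 7.38, 6.23, 6.23, 5.88 and 6.07 log2 in KO tumours, against 7.99, 5.89, 9.41, 6.74 and 6.95 log2 in WT tumours. WT tumour 8, the only tumour of mouse 82, was the highest of the 10 on all 4 Tgfb2 probe sets, KO tumour 2 was the highest of the KO tumours on all 4, and the groups overlapped. Probe set 1450922_a_at read 6.24, 5.95, 5.89, 5.13 and 5.71 log2 in KO tumours, against 6.39, 5.83, 8.61, 6.58 and 6.24 log2 in WT tumours. On 1438303_at, KO tumours read 6.20, 5.64, 5.76, 5.39 and 5.76 log2, against 6.51, 5.73, 7.89, 6.34 and 5.90 log2 in WT tumours, with the same tumour on top. The 3 tested probe sets, in the order 1438303_at, 1450922_a_at and 1450923_at, had differences of −0.78 ± 0.37, −1.03 ± 0.47 and −1.13 ± 0.60 log2 (SE), with 95% intervals that together span −2.45 to 0.19 log2, and none passed (limma, adjusted p = 0.258, 0.242 and 0.319). On 1438303_at and 1450922_a_at the KO means, 5.75 and 5.78 log2, lay under the level filter, so these entered the test through their WT values and their differences are not exact. Without WT tumour 8 the same differences were −0.37, −0.48 and −0.54 log2 (adjusted p = 0.386, 0.308 and 0.558). Without mouse 72, which leaves tumour 8 as the only WT tumour, they were −2.14, −2.83 and −3.06 log2 and passed (adjusted p = 0.0199, 0.0155 and 0.0353), a fit that rests on 1 WT tumour and, for those 2 probe sets, on KO values under the filter. The fourth probe set, 1423250_a_at, lay under the level filter at 5.17 ± 0.14 log2 in KO and 5.82 ± 0.79 log2 in WT tumours (SD, n = 5 each).

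Tgfb1, the isoform of leukocytes, platelets and most epithelia, lay close to the level filter, and its probe sets gave no call. Probe set 1420653_at read 6.17, 5.61, 6.33, 5.61 and 5.78 log2 in KO tumours, against 6.38, 6.07, 5.44, 6.10 and 6.09 log2 in WT tumours. The groups overlapped almost fully, with a difference of −0.08 ± 0.21 log2 (SE, 95% interval −0.54 to 0.37, limma, adjusted p = 0.866). The second probe set, 1445360_at, was under the level filter and differed the other way, at 5.45 ± 0.24 log2 in KO and 5.29 ± 0.18 log2 in WT tumours (SD, n = 5 each). Across the 10 arrays the 2 Tgfb1 probe sets correlated weakly (Pearson r = 0.15, over arrays that share 3 KO and 2 WT mice), whereas the 4 Tgfb2 probe sets correlated at 0.91 to 0.98. Lymphocyte markers, from cells that express Tgfb1, were higher in each KO tumour as given above, and their part in the Tgfb1 values was not tested. The level filter lay between 1423250_a_at of Tgfb2, with a mean of 5.49 log2 over all arrays, and 1420653_at of Tgfb1, with 5.96 log2.

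The windows around the start sites of 2 ligand genes and 2 other genes of the pathway are shown because these genes differ in how their levels moved: Tgfb1 and Tgfb2, neither of which passed, Ltbp1, which fell most among the pathway genes tested, and Smad6, the one that rose. Sequences are RefSeq's (build GRCm38.p6), 250 bases before to 50 after the start, written 5′ to 3′ on the gene's strand, with matches to 5 motifs in capitals. The motifs, searched on both strands, were CTTTGAT (TCF/LEF), GTCTAGAC (a Smad-binding palindrome), TGACGTCA (the cAMP response element), TGAGTCA (AP-1) and CACGTG (an E-box).
Tgfb1, chr7:25686752-25687051, plus strand: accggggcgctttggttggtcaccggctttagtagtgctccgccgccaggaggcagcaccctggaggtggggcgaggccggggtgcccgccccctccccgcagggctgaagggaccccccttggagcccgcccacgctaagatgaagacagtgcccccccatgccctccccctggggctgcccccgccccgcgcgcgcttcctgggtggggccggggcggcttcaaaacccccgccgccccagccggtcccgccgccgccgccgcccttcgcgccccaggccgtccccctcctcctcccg
Tgfb2, chr1:186705940-186706239, minus strand: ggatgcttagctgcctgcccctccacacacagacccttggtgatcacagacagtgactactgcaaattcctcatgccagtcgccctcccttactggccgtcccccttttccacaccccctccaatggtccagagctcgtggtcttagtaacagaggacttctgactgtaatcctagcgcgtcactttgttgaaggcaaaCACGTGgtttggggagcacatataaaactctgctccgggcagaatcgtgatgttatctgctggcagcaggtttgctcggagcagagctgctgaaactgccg
Ltbp1, chr17:75005279-75005578, plus strand: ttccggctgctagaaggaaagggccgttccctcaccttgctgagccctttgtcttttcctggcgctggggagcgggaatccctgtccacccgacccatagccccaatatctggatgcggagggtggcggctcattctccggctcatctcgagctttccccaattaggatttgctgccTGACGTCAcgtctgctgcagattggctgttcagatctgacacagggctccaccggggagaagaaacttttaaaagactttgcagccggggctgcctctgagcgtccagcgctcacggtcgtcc
Smad6, chr9:64022010-64022309, minus strand: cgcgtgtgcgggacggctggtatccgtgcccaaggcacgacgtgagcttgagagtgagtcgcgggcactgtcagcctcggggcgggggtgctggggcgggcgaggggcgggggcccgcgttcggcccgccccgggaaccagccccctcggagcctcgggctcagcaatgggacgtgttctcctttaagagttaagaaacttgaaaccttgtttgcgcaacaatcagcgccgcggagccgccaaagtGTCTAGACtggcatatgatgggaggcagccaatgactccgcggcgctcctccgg
The Tgfb1 window held none of these motifs and a GC content of 77.0%, against 54.3% in the Tgfb2 window. Tgfb2 had 1 E-box (in 7.15% of 32851 windows of this length), Ltbp1 1 cAMP response element (in 1.79%) and Smad6 1 Smad-binding palindrome (in 0.213%). None of the 4 windows held CTTTGAT, which occurred in 3.73% of all windows, and none of the other member windows held any of the 5 motifs. Of the 9 member genes, 6 had such windows. Tgfb3, Smad2 and Smad7 had none, so the motif search did not cover them. A second Ltbp1 entry, not printed, had no match. Matches describe letters only.

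The receptor genes did not differ past the threshold. For Tgfbr2, the ligand-binding type II receptor, probe set 1426397_at read 11.04, 11.22, 11.12, 11.04 and 10.72 log2 in KO tumours, against 10.98, 10.88, 10.90, 11.59 and 10.99 log2 in WT tumours. WT tumour 12 was the highest and KO tumour 11 the lowest, and the other 8 tumours lay in a narrow band. The difference was −0.03 ± 0.17 log2 (SE, 95% interval −0.40 to 0.34, limma, adjusted p = 0.946). Probe set 1425444_a_at gave −0.04 ± 0.22 log2 (adjusted p = 0.951), and 1422019_at, under the level filter, was at 2.69 ± 0.14 log2 in KO and 2.64 ± 0.07 log2 in WT tumours (SD, n = 5 each). For Tgfbr1, the type I receptor kinase, probe set 1420895_at read 9.50, 9.63, 9.04, 9.31 and 9.14 log2 in KO tumours, against 9.40, 8.77, 9.46, 9.39 and 9.57 log2 in WT tumours. WT tumour 3 was the lowest of the 10 on all 3 Tgfbr1 probe sets. Their differences were −0.0042 ± 0.18, −0.15 ± 0.15 and −0.10 ± 0.16 log2 (SE; 1420895_at, 1420894_at and 1420893_a_at), with 95% intervals within −0.48 to 0.40 log2 (limma, adjusted p of 0.638 to 0.993). On 1420894_at, KO tumours read 8.92, 9.26, 8.79, 8.89 and 8.77 log2, against 9.24, 8.64, 9.20, 9.11 and 9.14 log2 in WT tumours, so that the WT tumours other than tumour 3 lay above 4 of the 5 KO tumours. Without WT tumour 3 the 3 differences were −0.14, −0.25 and −0.21 log2.

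**Figure D2:**
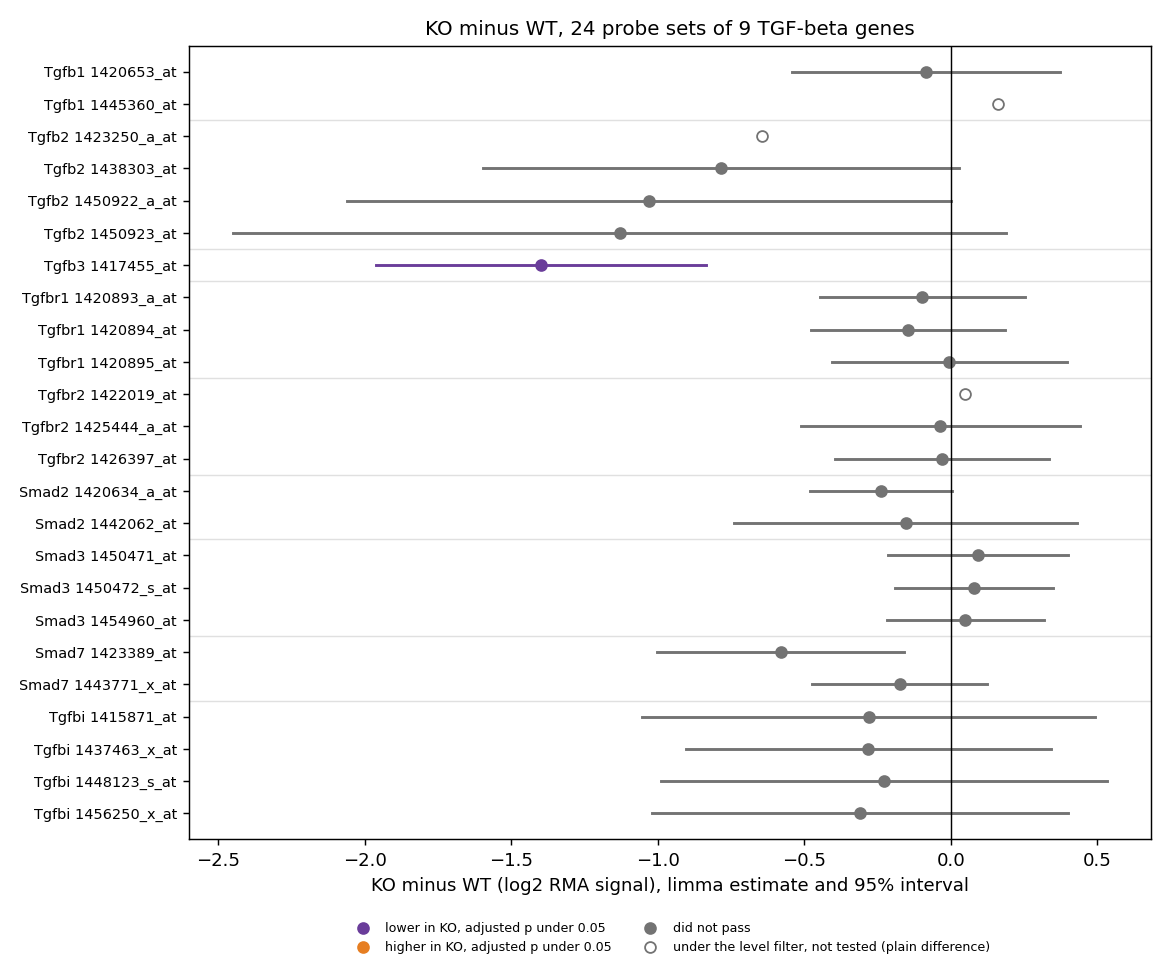
Difference KO minus WT in log2 RMA signal for each of the 24 probe sets, as the limma estimate with its 95% interval, and as the plain difference of means (open circles) for the 3 probe sets under the level filter. The interval of Tgfb3 lies between −1.96 and −0.84 log2, the Tgfb2 intervals are wide and reach past 0, and the receptor and Smad3 intervals lie within −0.51 to 0.44 log2.

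Among the receptor-activated Smads, Smad2 had a slightly lower mean in KO tumours on its 2 probe sets, without passing. On 1 of them the groups overlapped. Probe set 1420634_a_at read 9.85, 9.68, 9.71, 9.81 and 9.82 log2 in KO tumours, against 10.29, 9.87, 10.02, 9.88 and 10.001 log2 in WT tumours. The groups did not overlap, with KO tumour 2 and WT tumour 3 next to each other. The difference was −0.24 ± 0.11 log2 (SE, limma, adjusted p = 0.251). Such a lack of overlap occurred in 2 of the 21 member probe sets (9.52%), this one and Tgfb3, and in 8.39% of all probe sets tested, 3.74% with the KO tumours lower. The other Smad2 probe set, 1442062_at, had a difference of −0.15 ± 0.27 log2 with KO tumour 7 lowest at 7.60 log2. Smad3, the partner that binds DNA directly, differed by 0.05 to 0.09 log2 over its 3 probe sets, with standard errors of 0.12 to 0.14 (limma, adjusted p of 0.759 to 0.865). On 1450471_at, KO tumours read 8.56, 8.60, 8.81, 8.67 and 8.46 log2, against 8.35, 8.70, 8.29, 8.88 and 8.49 log2 in WT tumours. On 1454960_at, KO tumours read 10.19, 10.26, 9.97, 10.05 and 9.89 log2, against 9.91, 9.82, 10.01, 10.23 and 10.13 log2 in WT tumours, so the groups covered nearly the same span.

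Smad7, the inhibitory Smad that TGF-beta itself induces and that blocks the type I receptor, did not pass on either probe set. Probe set 1423389_at read 7.99, 8.21, 7.66, 8.45 and 8.33 log2 in KO tumours, against 9.03, 8.65, 8.85, 8.70 and 8.24 log2 in WT tumours. WT tumour 13 lay among the KO tumours and the other 4 WT tumours lay above all of them. The difference was −0.58 ± 0.19 log2 (SE, 95% interval −1.003 to −0.16, unadjusted p = 0.0114, limma, adjusted p = 0.109). With the number range as a covariate it was −0.88 log2 and passed (adjusted p = 0.0211), and within the lower and upper ranges it was −0.95 and −0.78 log2 (adjusted p = 0.335 and 0.117). The second Smad7 probe set, 1443771_x_at, had a difference of −0.17 ± 0.14 log2 (adjusted p = 0.515), and over the 10 arrays it correlated with the first at a Pearson r of 0.47, so the 2 disagree in size.

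Tgfbi encodes a secreted matrix protein named for its induction by TGF-beta, and its 4 probe sets varied more among tumours than between the groups. Probe set 1448123_s_at read 11.42, 10.61, 11.04, 10.49 and 10.63 log2 in KO tumours, against 11.24, 9.89, 11.03, 11.57 and 11.64 log2 in WT tumours. The lowest of the 10 was WT tumour 3 and the highest WT tumour 13, so the WT tumours spanned the KO tumours. On 1415871_at, KO tumours read 10.41, 9.70, 10.06, 9.52 and 9.85 log2, against 10.44, 9.03, 9.94, 10.78 and 10.82 log2 in WT tumours, in nearly the same order. The 4 differences ranged from −0.31 to −0.23 log2, with standard errors of 0.28 to 0.35 log2 (limma, adjusted p of 0.630 to 0.765). Without WT tumour 3 they ranged from −0.55 to −0.50 log2 and did not pass either (adjusted p of 0.184 to 0.221). The 4 probe sets correlated with each other at 0.95 to 0.99 over the 10 arrays. Within each group the tumour with the highest and the one with the lowest fibroblast marker mean were also the highest and lowest for 1448123_s_at: KO tumours 2 and 9, with marker means of 8.03 and 7.19 log2, and WT tumours 13 and 3, with 7.97 and 7.02 log2. This was not particular to fibroblasts. KO tumours 2 and 9 were also highest and lowest of the KO tumours for smooth muscle markers (7.56 and 6.69 log2) and endothelial markers (7.61 and 6.47 log2). WT tumour 3 was the lowest WT tumour for both (6.46 and 6.41 log2), while the highest were WT tumours 12 and 8. For Tgfb2, the high WT tumour 8 also had the highest endothelial marker mean, 7.90 log2, against 6.41 to 7.58 log2 in the other WT tumours and 6.47 to 7.61 log2 in KO tumours. The pairing of Tgfbi with fibroblast markers and of Tgfb2 with endothelial markers was not set beforehand. What part these cells have in the Tgfbi and Tgfb2 values was not tested.

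**Figure D3:**
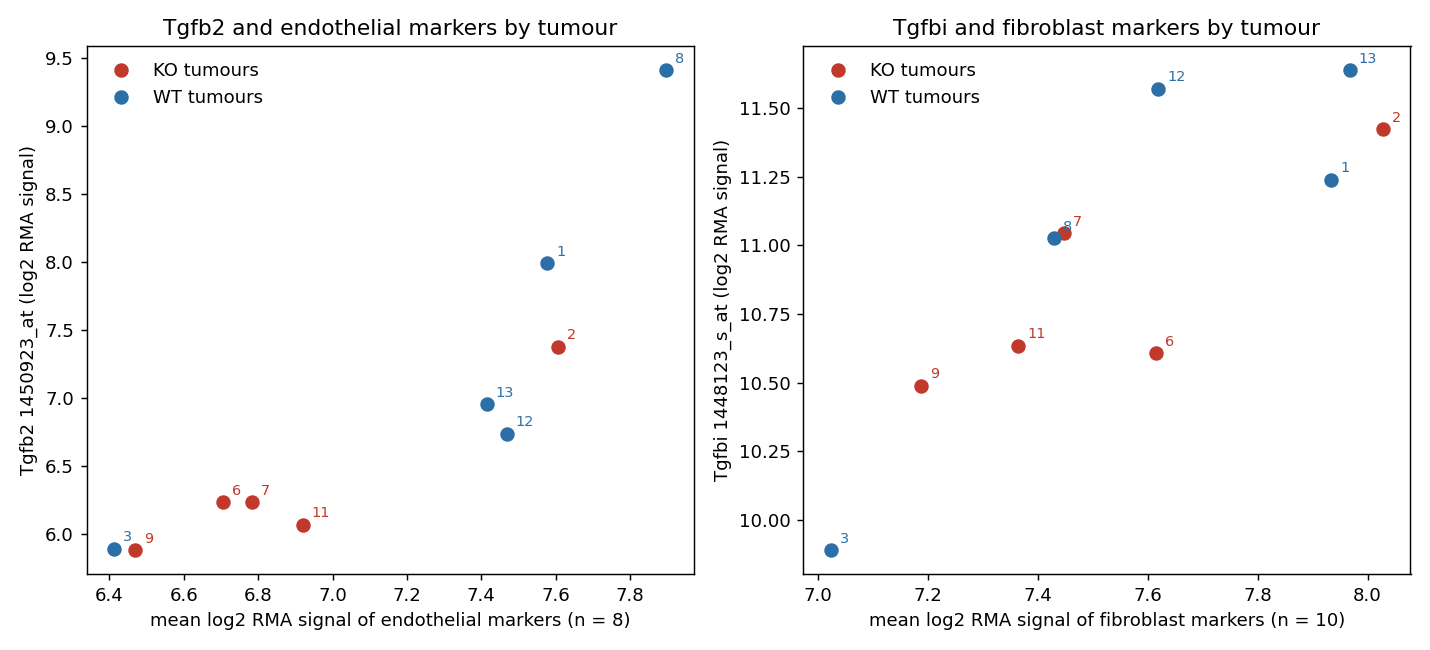
Left, log2 RMA signal of Tgfb2 (1450923_at) against the mean of 8 endothelial markers; right, Tgfbi (1448123_s_at) against the mean of 10 fibroblast markers, each point 1 tumour with its number, KO red and WT blue. WT tumour 8 stands at the upper right for Tgfb2 with 9.41 log2, and WT tumour 3 at the lower left for Tgfbi with 9.89 log2.

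The other genes of the pathway were read from a list of 61 genes, each at its probe set with the highest mean. Of these, 59 were read and 52 tested, with 1 higher, 5 lower and 46 not passing (limma, adjusted over all probe sets tested). That is 11.5% of the list, against 5.73% of all probe sets and 7.08% of 12257 genes when 1 probe set per gene was tested, and for lower calls 9.62% of the list against 2.52% and 2.93%, for higher calls 1.92% against 3.2% and 4.15%. The median difference of the list was −0.16 log2. The list was chosen with earlier results of these data known, so its shares may reflect that choice and do not test the pathway. Within the lower number range, where tumour 7 is the only KO tumour, none of the 6 calls held, in a fit that called 0.159% of all probe sets. The differences there were −2.43 log2 for Ltbp1, −1.42 for Thbs1, 0.64 for Smad6, −1.63 for Fn1, −1.04 for Tsc22d1 and −1.47 for Lox. Within the upper range, where tumour 1 is the only WT tumour, the calls of Ltbp1 and Thbs1 held.

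Of 12 latency and activation genes, 9 were tested and 2 fell. Ltbp1, which tethers latent TGF-beta to the matrix, read 8.83, 8.38, 8.18, 7.98 and 8.35 log2 in KO tumours, against 10.75, 9.78, 10.61, 10.75 and 11.29 log2 in WT tumours. All KO tumours were lower than all WT tumours, with a difference of −2.29 ± 0.27 log2 (SE, 4.89-fold, limma, adjusted p = 0.00105). A second tested Ltbp1 probe set, 1419786_at, differed by −0.75 log2 without passing (adjusted p = 0.0686). Thbs1, thrombospondin-1, which can release TGF-beta from its latent complex, read 8.32, 8.42, 8.44, 8.59 and 8.33 log2 in KO tumours, against 11.64, 9.56, 10.22, 9.39 and 10.27 log2 in WT tumours. The KO tumours were nearly level and the WT tumours spread widely above them, with a difference of −1.80 ± 0.38 log2 (adjusted p = 0.0214). A second Thbs1 probe set, 1460302_at, differed by −1.82 log2 and also passed (limma, adjusted p = 0.0266). The call of the first was lost without KO tumour 6 (−1.80 log2, adjusted p = 0.0595), mouse 02 (0.0894) or mouse 04 (0.0716) and with an RNA quality covariate, the 3′ minus 5′ signal of Actb and Gapdh controls (0.0540). Itgb6, a subunit of the epithelial integrin that activates TGF-beta, did not pass and differed by 0.68 ± 0.40 log2, and WT tumour 1 was its lowest tumour at 6.21 log2.

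The Smad partners and regulators held the one rise. Smad6, an inhibitory Smad that acts mainly on the BMP branch, read 6.74, 7.03, 6.69, 6.68 and 6.98 log2 in KO tumours, against 5.97, 6.36, 5.78, 6.04 and 6.05 log2 in WT tumours. All KO tumours were higher than all WT tumours, with a difference of 0.79 ± 0.14 log2 (SE, 1.73-fold, limma, adjusted p = 0.00692). Over mouse means it was 0.86 log2 (adjusted p = 0.0515), and without mouse 72 it was 1.04 log2 (adjusted p = 0.0755). The other 12 of the 13 tested did not pass, although 6 of them had an unadjusted p under 0.05, a level that 20.7% of all probe sets tested reached. These 6, named here after their values were seen, were Smad4, the shared partner of all receptor-activated Smads, at 0.31 log2, Nedd4l at 0.32, Skil at 0.45, Zfyve9 at −0.34, Smurf1 at −0.41 and Tgif2 at −0.80 log2. Pmepa1, a feedback inhibitor induced by TGF-beta, differed by 0.06 ± 0.15 log2.

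Of 18 target genes tested, 3 fell and none rose. Fn1, fibronectin, had means of 9.79 ± 0.46 log2 in KO and 11.30 ± 0.61 log2 in WT tumours (SD, n = 5 each), a difference of −1.48 ± 0.32 log2 (SE, limma, adjusted p = 0.0218), with KO tumour 2 at 10.50 log2 just above WT tumour 8 at 10.44 log2. A second Fn1 probe set, 1437218_at, differed by −2.64 log2 and also passed (limma, adjusted p = 0.0250). Its KO mean of 5.43 log2 lay under the level filter, so it entered the test through its WT values and this difference is not exact. Lox, which crosslinks collagen, had means of 6.18 ± 0.51 log2 in KO and 7.75 ± 0.68 log2 in WT tumours, a difference of −1.58 ± 0.36 log2 (adjusted p = 0.0272), and its second probe set, 1416121_at, differed by −1.34 log2 without passing (adjusted p = 0.0858), with a KO mean of 5.51 log2 under the level filter, so that it entered the test through its WT values and the difference is not exact. Tsc22d1, a TGF-beta-stimulated transcriptional regulator, had means of 11.76 ± 0.26 log2 in KO and 12.43 ± 0.18 log2 in WT tumours, a difference of −0.68 ± 0.15 log2 (adjusted p = 0.0249). Of its 4 other tested probe sets, 1425742_a_at and 1433899_x_at also passed (adjusted p = 0.0256 and 0.0432), and 1439111_at and 1454758_a_at did not (0.144 and 0.0557). Each of these 3 calls was lost when some single tumours were left out: Fn1 without KO tumour 6 (adjusted p = 0.0534), Tsc22d1 without KO tumour 11 (0.0531) or WT tumour 1 (0.0566), and Lox without KO tumour 6 or 11 or WT tumour 1, 8 or 13 (0.0558 to 0.0686). Over mouse means, Fn1 (adjusted p = 0.174) and Tsc22d1 (0.134) did not pass. Without mouse 04 none of the 3 passed (Fn1 0.0974, Tsc22d1 0.0754, Lox 0.111), nor without mouse 72, where the differences were −0.66 log2 for Fn1 (adjusted p = 0.495), −0.71 log2 for Tsc22d1 (0.267) and −1.99 log2 for Lox (0.0798). Lox also lost its call with the number range as a covariate (−1.53 log2, adjusted p = 0.0857), and Tsc22d1 with the RNA quality covariate (−0.62 log2, adjusted p = 0.0550). The other 15 did not pass, among them the collagen genes Col1a1, Col1a2 and Col3a1, at −0.53, −0.37 and −0.19 log2, and the contractile genes Tagln and Acta2, at −0.10 and 0.03 log2. Fibroblast and smooth muscle markers overlapped between the groups with 0 of 6 and 0 of 6 past the threshold. The endothelial marker means overlapped too, at 6.90 log2 on average in KO and 7.35 log2 in WT tumours, with 0 of 8 past the threshold. The differences of these 8 ran from −1.25 log2 (Cldn5) to 0.04 log2 (Emcn). The lymphocyte marker mean was higher in each KO tumour than in any WT tumour. The part of all these cells in the pathway calls was not tested.

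**Figure D4:**
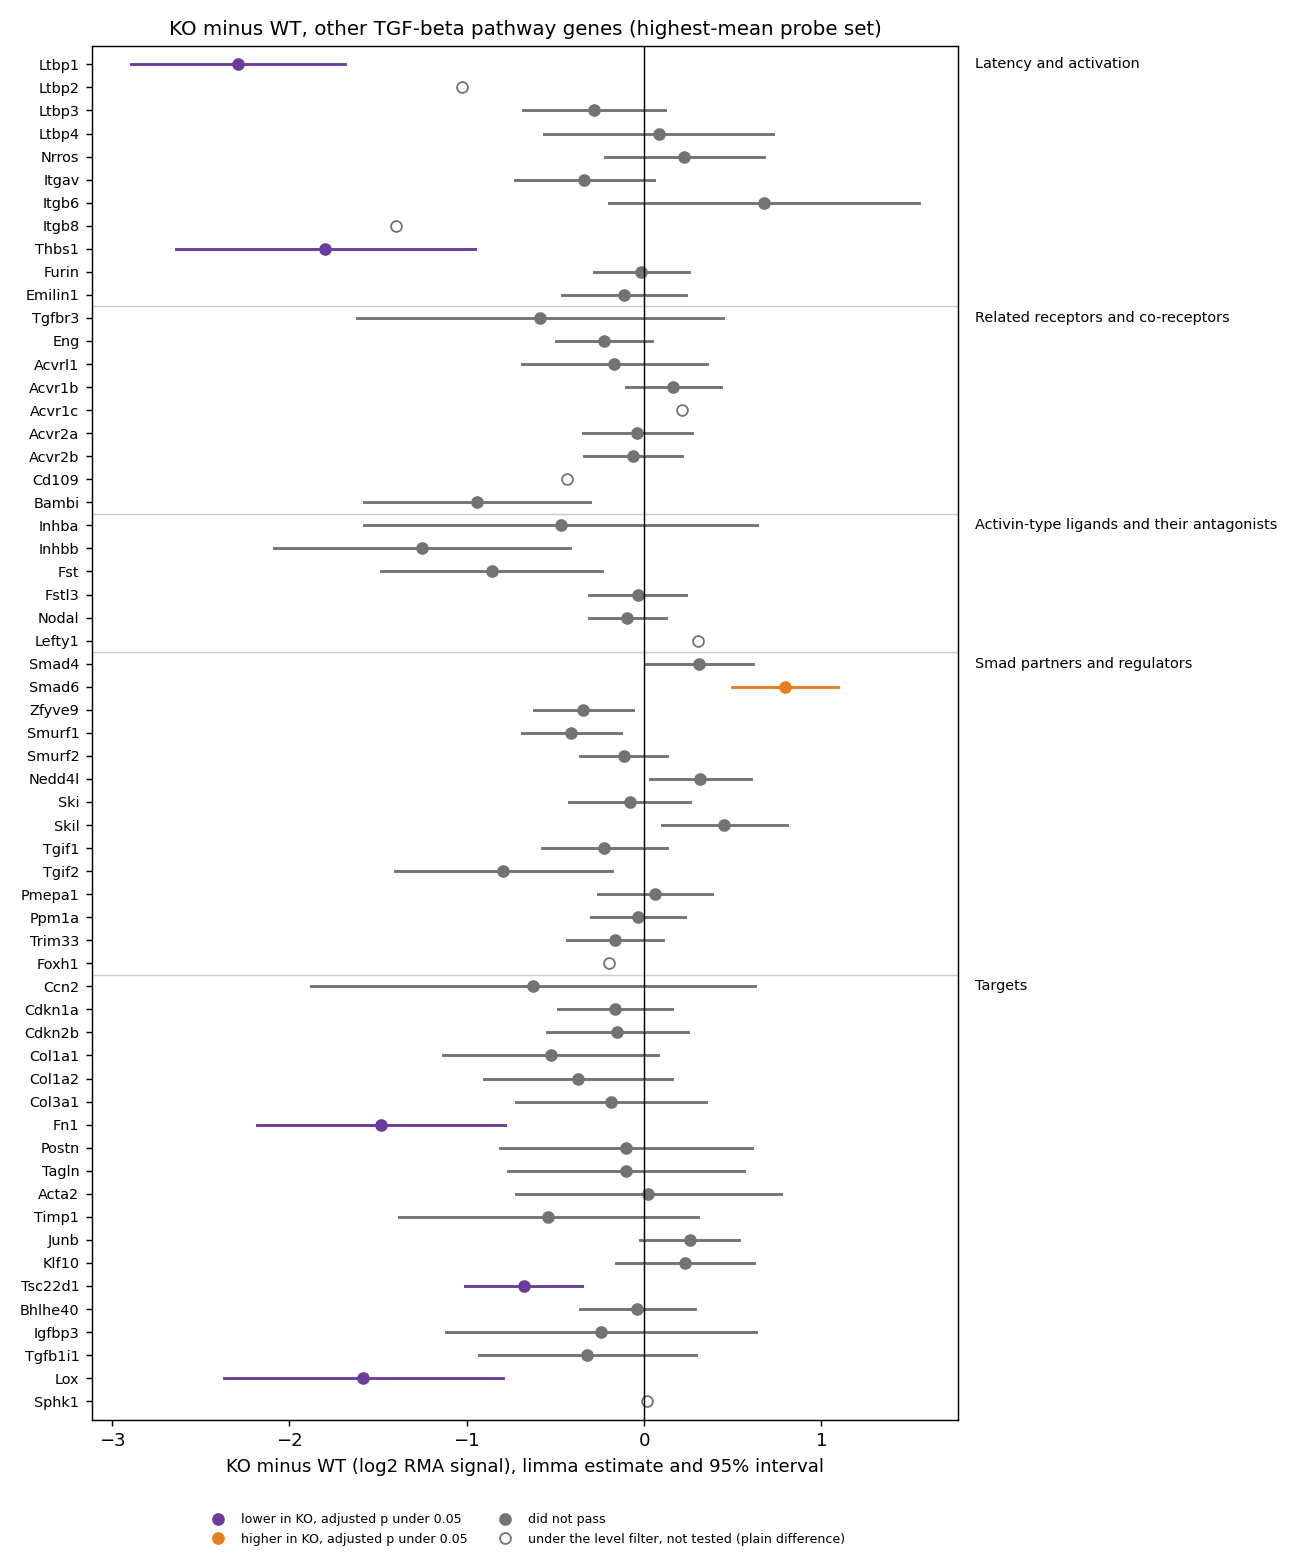
Difference KO minus WT in log2 RMA signal for the 59 other pathway genes read, grouped by role, with the limma estimate and 95% interval, or the plain difference (open circles) where the probe set was under the level filter. Ltbp1, Thbs1, Fn1, Lox and Tsc22d1 were lower in KO tumours past the threshold and Smad6 was higher.

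No related receptor and no activin-type gene passed. Bambi, a decoy receptor that lacks the kinase domain, had means of 7.56 ± 0.41 log2 in KO and 8.49 ± 0.53 log2 in WT tumours (SD, n = 5 each) and a difference of −0.94 ± 0.29 log2 (SE, limma, adjusted p = 0.0864), and the co-receptor gene Eng differed by −0.23 ± 0.12 log2 (adjusted p = 0.336). Inhbb, which encodes an activin subunit, differed by −1.25 ± 0.38 log2 (adjusted p = 0.0830) and passed over mouse means (adjusted p = 0.0170), with the number range as a covariate (0.0313) and without WT tumour 3 (0.0281). Fst, follistatin, an activin antagonist, differed by −0.86 ± 0.28 log2 (adjusted p = 0.108) and passed without KO tumour 7 (−1.10 log2, adjusted p = 0.0110) and with array weights (−0.97 log2, adjusted p = 0.0426). With the number range as a covariate the Fst difference was −0.38 log2 (adjusted p = 0.408), and within the lower range it was 0.030 log2 (adjusted p = 0.989). The groups overlapped for all 4.

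The genes whose values over the 10 arrays were most like those of Tgfb3, among 12256 other tested genes, were Chst11, a chondroitin sulfotransferase gene (Pearson r = 0.98), and Pcdhgc4, a clustered protocadherin gene (r = 0.98). Chst11 averaged 5.70 ± 0.50 log2 in KO and 7.05 ± 0.45 log2 in WT tumours, and Pcdhgc4 averaged 6.12 ± 0.11 log2 in KO and 6.90 ± 0.23 log2 in WT tumours (SD, n = 5 each). The KO mean of Chst11, like that of Tgfb3, lay under the level filter of 5.81 log2. Chst11 was thus among the tested genes through its WT values, and its likeness to Tgfb3 is partly between low KO signals. Chst11 and Pcdhgc4 were both lower in all KO than in all WT tumours, which by itself raises such a correlation, and the arrays share mice.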

How the data were processed

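The authors deposited 1 log2 signal per probe set and tumour, made with RMA per the submitters' processing notes (background correction, quantile normalisation and probe set summary, version not given in the sources used here), from 30 ng of amplified RNA per the labels' protocols. By the extract protocol, dissected pieces of each mouse were combined, yet up to 4 arrays name the same mouse with different tumours. Arrays were therefore treated as separate tumours. Whether tumours of 1 mouse arose separately is not stated, so p-values rest largely on the spread between tumours of few mice.

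Of 45101 probe sets, 34958 had 1 gene symbol, 932 several and 9160 none. The 45101 also held 64 Affymetrix controls, a class that partly overlaps these. Symbols were updated by Entrez identifier for 34754, and 204 kept the annotation's name (GRCm38.p6 gene table, no build being given in the sources used here). The 27022 probe sets whose mean reached the 40th percentile (5.81 log2) were tested, KO minus WT, in R 4.3.3 by lmFit and eBayes of limma 3.58.1, the mouse being a random block (statmod 1.5.0, consensus correlation 0.0777), and p-values were adjusted by Benjamini-Hochberg. Named were all member probe sets, the pathway genes past the threshold or else the 2 per role with the smallest p, the 2 genes most like each changed member, and, chosen after their values were seen, Itgb6, Pmepa1, Col1a1, Col1a2, Col3a1, Tagln, Acta2 and the regulators with an unadjusted p under 0.05. The members, lists and alternatives were chosen with earlier results of these data known. The fit was tried on simulated data with 200 changed probe sets and a within-mouse correlation of 0.1. It recovered 72% of 2-fold and 91% of 4-fold changes, and 5.78% of its calls were false. The simulation held no effect of number range and no correlation between probe sets. No detection calls were used. The alternatives, 29 in all, were no block, mouse means, number range as covariate or alone, other level filters, 1 probe set per gene, no x_at, s_at or a_at probe sets, median centring, cyclic loess, trended robust eBayes, array weights, the 3′ to 5′ difference, and each tumour or mouse left out.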

Additional observations from a re-analysis of the deposited data

Results flagged for a closer look

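Within a group of 5, a tumour was singled out where its gap to the nearest other took up more than 0.71 of the group's range (Dixon's test). This held in 9 of 82 groups examined, where chance gives about 4.1, and no cause was tested. Several groups are probe sets of the same gene, which read the same RNA, so the 82 are not separate observations.

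Among the ligands, WT tumour 8 read 8.61 log2 for Tgfb2 (1450922_a_at), apart from the other WT tumours (5.83 to 6.58 log2). KO tumour 2 read 7.38 log2 for Tgfb2 (1450923_at), with the other KO tumours at 5.88 to 6.23 log2. KO tumour 7 read 5.86 log2 for Tgfb1 (1445360_at), under the level filter on average, with the others at 5.27 to 5.43 log2. For Tgfbr1, WT tumour 3 read 8.64 log2 (1420894_at; others 9.11 to 9.24 log2) and 8.77 log2 (1420895_at; others 9.39 to 9.57 log2), and the same tumour had a myeloid marker mean of 7.15 log2, against 7.80 to 7.97 log2 in the other WT tumours. For Tgfbr2, WT tumour 12 read 11.59 log2 (1426397_at; others 10.88 to 10.99 log2), and WT tumour 1 read 2.51 log2 on the dim 1422019_at (others 2.66 to 2.69 log2). KO tumour 7 read 8.01 log2 for Smad3 (1450472_s_at; others 7.62 to 7.73 log2).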

How the results depend on the processing

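No paired analysis was possible because KO and WT tumours share no mouse. The arrays were few, and the signals of Tgfb1, Tgfb2 and Tgfb3 lay near the level filter. What part background had in these signals was not assessed. No member probe set rose under any of the 29 alternatives. The count of member probe sets that fell, 1, was 2 with the number range as a covariate (Tgfb3 and Smad7), 3 without mouse 72 (all Tgfb2), and 0 within the lower number range, with the filter at the 60th percentile, which drops Tgfb3, and without mouse 04; it was 1 to 1 with single tumours left out. The pathway count of 1 higher was 2 with the range covariate and 0 over mouse means, within the lower range, at the 60th percentile filter and without mouse 72. The pathway count of 5 lower was 0 within the lower range, 3 within the upper range and with the 3′ to 5′ covariate, 1 without mouse 04, 2 without mouse 72, and 2 to 6 with single tumours left out. Over all probe sets, 866 higher and 682 lower became 380 and 383 over mouse means, 18 and 25 within the lower range, 607 and 441 with the 3′ to 5′ covariate, and, leaving out a mouse, 414 and 327 (mouse 04), 274 and 303 (mouse 72) or 550 and 405 (mouse 02), 509 and 359 with 1 probe set per gene, 595 and 405 at the 60th percentile, and 503 to 938 and 372 to 842 with single tumours left out. The causes were not tested beyond the smaller number of samples or probe sets that some of these use.

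Differences with another sign than reported came up 45 times, none past the threshold. Mice 82 and 99 had 1 tumour each. Leaving out such a mouse and leaving out its tumour are the same fit, counted in each form here and among the 29 alternatives. Tgfb1 (1420653_at) was 0.17 over mouse means, 0.40 within the lower range, 0.024 without mouse 04, 0.48 without mouse 72, and −0.26 to 0.013 with single tumours left out. Tgfbr1 (1420895_at) was 0.0066 with no block, 0.011 with median centring, 0.12 with the 3′ to 5′ covariate, 0.075 without mouse 99, 0.071 without mouse 04, 0.040 without mouse 82, and −0.14 to 0.075 with single tumours left out. Tgfbr2 (1425444_a_at) was 0.058 over mouse means, 0.045 with the range covariate, 0.041 with array weights, 0.10 within the lower range, 0.17 without mouse 72, and −0.15 to 0.069 with single tumours left out. Tgfbr2 (1426397_at) was 0.039 over mouse means, 0.044 with the range covariate, 0.029 and 0.030 within the lower and upper ranges, 0.0001 with the 3′ to 5′ covariate, 0.062 without mouse 04, 0.13 without mouse 72, and −0.079 to 0.095 with single tumours left out. Smad2 (1442062_at) was 0.034 without mouse 99 and −0.27 to 0.034 with single tumours left out. Smad3 (1454960_at) was −0.084 within the lower range and −0.053 without mouse 02, Smad7 (1443771_x_at) 0.075 within the upper range, Tgfbi (1448123_s_at) 0.014 within the lower range and 0.022 with the 3′ to 5′ covariate, and Fst 0.030 within the lower range.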
